A study of Sus scrofa with 7 samples.

Results

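Histone-modifying enzymes were taken from the deposited gene tables by their names. The members are the lysine methyltransferases of the KMT2, SETD, SETDB, SUV39H, EHMT, EZH and NSD families with DOT1L and the PRC2 subunit SUZ12, the lysine demethylases (KDM), the arginine methyltransferases (PRMT), the lysine acetyltransferases (KAT), the histone deacetylases (HDAC) and the sirtuins (SIRT). Of 29510 genes listed, 64 carried such a name, with 63 different symbols, because HDAC9 stood in 2 rows. The filter on low counts kept 62 of them, and SUV39H1 and the second HDAC9 row were listed below it. RNA sequencing compared porcine extra-embryonic endoderm cells (pXEN, 3 lines) with naïve-like embryonic stem cells (nESC, 2 lines) and primed embryonic stem cells (pESC, 2 lines), with 1 library per line. The pXEN lines came from the inner cell masses of parthenogenetic blastocysts and were kept on mouse embryonic fibroblasts with LIF, CHIR99021, dimethindene maleate, minocycline and Y27632, at passages 26, 26 and 23. The nESCs, at passages 21 and 22, grew on the same kind of feeder with FGF, LIF, PD0325901, CHIR99021, SB431542 and doxycycline. The pESCs, which the labels describe as converted from naïve-like cells, grew on STO feeder cells with activin A, bFGF, EGF and LIF, both at passage 20. The medium differed between all cell types and the feeder between the pESCs and the others, so the cell type cannot be told apart from its culture.

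Histone tails carry methyl and acetyl groups that one set of enzymes adds and another removes. Methylation of H3K4 accompanies active promoters and enhancers and that of H3K36 the bodies of transcribed genes, while methylation of H3K9 and H3K27 accompanies silent chromatin, the latter written by Polycomb repressive complex 2 (PRC2). Acetylation of lysines generally accompanies open chromatin, and arginine methylation occurs on histones and on many RNA-binding proteins. The transcript levels below say nothing of protein amount or of the marks themselves, which were not analysed here.

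Library totals lay between 10408164 and 12995720 counts, at which 3 counts, taken as the floor of detection, correspond to 0.231 to 0.288 CPM, counts scaled by the library total (counting error only). The summed FPKM (fragments scaled by listed gene length and by a total for each library) of 8 extra-embryonic endoderm markers lay between 1850 and 2330 in the pXEN lines, between 13.1 and 13.5 in the nESCs and between 67.5 and 71.3 in the pESCs. SOX2 was at 102 to 154 FPKM in the ESC lines and at 0 to 1.98 in the pXEN lines. POU5F1 was at or under 0.284 FPKM in every library and NANOG at or under 0.148 in the nESCs. In the rows named for them, POU5F1 was thus near 0 throughout and NANOG in the nESCs. NANOG was at 1.43 and 1.41 FPKM in the pESCs. Whether these gene models of Sscrofa10.2 hold the reads of their genes was not tested, so low values there do not show that the genes were silent. In its row, NANOG was at 4.5 to 15.5 FPKM in the pXEN lines, and NANOG, SALL4 and DPPA5 were called higher there than in both ESC types. The sum over 8 pluripotency markers therefore did not separate pXEN cells, at 120 to 153 FPKM, from nESCs, at 137 to 165, and was 403 to 416 in pESCs. The sum over 10 fibroblast marker rows was 247 FPKM in pXEN line 2 against 18.4 and 20.8 in lines 1 and 3, 11.8 to 14.6 in the nESCs and 43.0 to 73.6 in the pESCs. Of these rows, 8 were above the floor in line 2 and 5 to 9 in the other libraries, and the part of this sum in the results was not tested. In bulk libraries, fewer cells of a type and less RNA per cell cannot be told apart.

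More histone-modifying enzymes were lower than higher in pXEN cells against either ESC type. Against nESCs, 24 of the 62 members tested were lower (38.7%) and 10 higher (16.1%), where 26.2% of all genes tested were called lower and 28.3% higher. Against pESCs, 17 members were lower (27.4%) and 8 higher (12.9%), with a background of 24.4% and 23.9%. The median log2 fold change of the members was -0.27 against nESCs and -0.23 against pESCs, beside 0.0 and -0.012 over all 17447 genes tested, and both medians kept these values with PRMT8, which had no count in pXEN cells, set at its bound. The median size of the log2 fold change was 0.61 and 0.38 among the members and 0.812 and 0.675 among all genes. A call is an adjusted p below 0.05 in the quasi-likelihood test of edgeR, with p adjusted by Benjamini-Hochberg over all genes tested. None of the called members had libraries that overlapped between the groups compared. The calls come from the same values, so this is no further support, and its share over all called genes was not computed.

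Against both ESC types alike, 5 members were higher (KDM6A, SETD7, SETD3, HDAC6 and HDAC7; background 18.1%) and 14 were lower (background 15.5%). The lower ones were NSD1, KDM1B, KMT2B, SETD8, KDM4A, SETD4, PRMT1, PRMT5, PRMT3, PRMT8, KAT7, KAT2A, KAT6A and KAT6B, of which 4 methylate arginine and 4 acetylate lysine. Both comparisons use the same pXEN libraries, so they are not independent. With a log2 fold change of at least 1 in size required in both, HDAC6, SETD7 and HDAC7 were higher (3 members; background 12.8%) and NSD1, KAT6B, KDM1B and PRMT8 lower (4 members; background 8.86%). No comparison called 21 of the members. Without pXEN line 2, 13 members were higher and 26 lower against nESCs, and 12 higher and 20 lower against pESCs. Calls over all genes rose at that setting too, to 5212 higher and 5147 lower of 17264 tested against nESCs (from 4937 and 4577 of 17447) and to 4572 and 4994 against pESCs (from 4168 and 4261). Against pESCs, 4 members were higher without pXEN line 1 or either pESC line, and 11 were lower without pESC line 1, settings at which calls over all genes fell as well, to between 2706 and 3597 higher and between 2847 and 3599 lower. With upper-quartile scaling, which lowered the median of all genes by 0.163 against nESCs, 10 members were higher and 30 lower against nESCs and 5 higher and 23 lower against pESCs, beside 4348 higher and 5621 lower and 3770 higher and 4811 lower over all genes. That scaling moved the share of higher calls against pESCs from 32.0% to 17.9%.

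**Figure D1:**
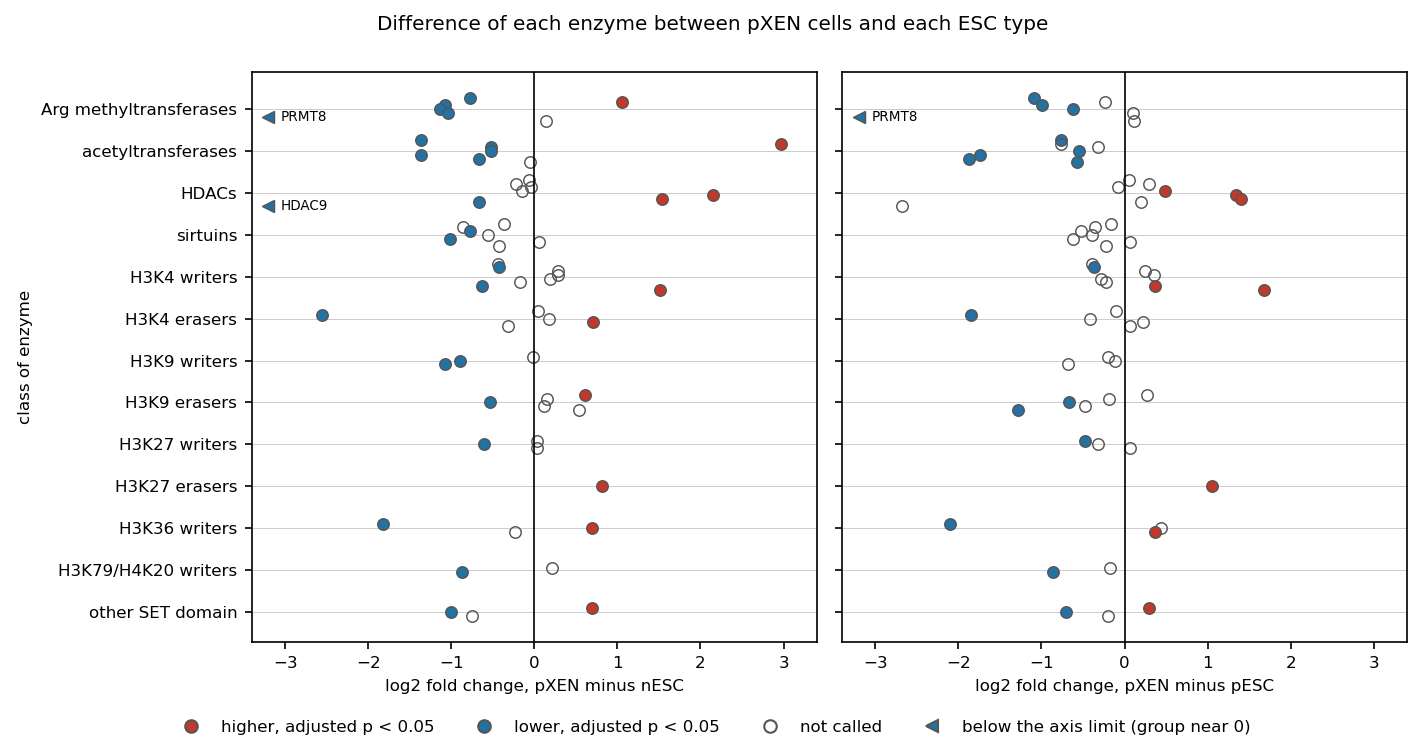
Log2 fold change of each of the 62 members tested, grouped by class (vertical axis), between pXEN cells and nESCs (left) and between pXEN cells and pESCs (right). Filled points passed the test, 10 higher and 24 lower on the left and 8 higher and 17 lower on the right; triangles mark members below the axis limit, whose pXEN level was at or near 0.

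The members were well expressed as a class. The median of their mean levels was 13 FPKM, against 7.92 FPKM for all genes tested. PRMT1 had the highest mean FPKM (523), followed by HDAC2, KDM5B, EHMT2, KDM1A and PRMT5. At the other end, SUV39H1, a writer of H3K9 trimethylation, had between 1 and 13 counts in each library.

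The arginine methyltransferases named PRMT had the lowest median of any class against nESCs. Of 7 members, 5 were lower (71.4%) and 1 higher (14.3%) in pXEN cells against nESCs, with a median log2 fold change of -1.04. Over all genes, 26.2% were lower and 28.3% higher. Against pESCs, 4 were lower (57.1%) and none higher, with a median of -0.62, beside 24.4% and 23.9% of all genes. PRMT1, which places most asymmetric dimethylarginine, was at 327, 363 and 335 FPKM in pXEN lines 1, 2 and 3, at 596 and 576 in the nESCs and at 732 and 730 in the pESCs. All pXEN libraries were below all ESC libraries. The log2 fold change was -0.78 ± 0.09 (SE) against nESCs (adjusted p = 0.000231) and -1.09 ± 0.09 against pESCs (adjusted p = 6.13e-05), a 2.13-fold lower level. PRMT5, the main enzyme of symmetric dimethylation, was at 41.4, 37.3 and 38.9 FPKM in pXEN cells, 90.8 and 79.6 in nESCs and 59.3 and 62.2 in pESCs. It was 2.18-fold lower than in nESCs (adjusted p = 5.29e-05) and 1.54-fold lower than in pESCs (adjusted p = 0.00153), and its level in pESCs was between the others. PRMT3, known for methylating a ribosomal protein, was 2.11-fold and 1.99-fold lower (adjusted p = 0.00679 and 0.0114), of which the first call was lost without nESC line 2 and the second without pESC line 1 and with a replicate block, with adjusted p of 0.00289 to 0.0614 and of 0.00454 to 0.091 over the alternatives. Summed over the class, pXEN lines had 439 to 463 FPKM, nESCs 772 to 802 and pESCs 864 to 865, sums in which PRMT1 holds most.

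Other arginine methyltransferases set the ESC types apart. PRMT8, a membrane-bound relative of PRMT1 known from neurons, had 0 counts in the 3 pXEN libraries, 95 and 184 in the nESCs and 17 and 7 in the pESCs. Its level in pXEN cells was at least 42.4-fold lower than in nESCs and at least 3.32-fold lower than in pESCs, taking 3 counts in each pXEN library as the floor. The adjusted p was 0.000362 and 0.00764, and with a pseudocount of 1 FPKM in place of the count test the second of these calls was lost (adjusted p 0.000112 to 0.375 over the alternatives). PRMT7, a monomethylating enzyme, stood at 49.2, 40.5 and 40.9 FPKM in pXEN cells and at 39.5 and 42.2 in pESCs, but at 92.4 and 85.6 in nESCs. Its log2 fold change against nESCs was -1.04 ± 0.13 (adjusted p = 0.000305) and against pESCs 0.10 ± 0.13 (adjusted p = 0.575). PRMT2 had the opposite order, with 13, 8.70 and 12.5 FPKM in pXEN cells, 13.6 and 13.4 in pESCs and 4.88 and 6.08 in nESCs. It was 2.07-fold higher in pXEN cells than in nESCs (log2 fold change 1.05 ± 0.26, adjusted p = 0.00919), a call lost without nESC line 1 (adjusted p 0.00156 to 0.0697 over the alternatives), and its log2 fold change against pESCs was -0.24 ± 0.24 (adjusted p = 0.455). PRMT9, a methyltransferase of a splicing factor, was between 5.07 and 6.84 FPKM in every library and was not called. The rows of PRMT7, PRMT3 and PRMT2 are listed at 794, 766 and 928 bases, and PRMT7 gave the class median against nESCs. Whether these models hold the whole transcripts was not tested.

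Among the acetyltransferases, 5 of 7 were lower in pXEN cells against nESCs and 5 of 7 against pESCs, with median log2 fold changes of -0.52 and -0.76. That is 71.4% in each comparison, beside 26.2% and 24.4% of all genes tested. In the other direction, 1 was higher against nESCs (14.3%) and none against pESCs, beside 28.3% and 23.9% of all genes. KAT6B (MORF), an H3 acetyltransferase of the MYST family, was at 2.47, 1.93 and 2.88 FPKM in pXEN cells, 5.78 and 6.72 in nESCs and 8.81 and 7.44 in pESCs. The pXEN lines were all below the ESC lines, by 2.59-fold against nESCs (log2 fold change -1.37 ± 0.18, adjusted p = 0.000411) and 3.33-fold against pESCs (-1.74 ± 0.18, adjusted p = 0.00016). Its paralog KAT6A (MOZ) was lower by less, with log2 fold changes of -0.52 ± 0.12 and -0.55 ± 0.12, calls that were lost without nESC line 2 and without pESC line 1 (adjusted p 0.00196 to 0.07 and 0.000929 to 0.066 over the alternatives). KAT7 (HBO1), the third MYST enzyme, was at 26.0, 19.6 and 24.6 FPKM in pXEN cells, 28.7 and 45.0 in nESCs and 88.3 and 83.0 in pESCs. The largest of these gaps was that to pESCs, at 3.64-fold (log2 fold change -1.87 ± 0.20, adjusted p = 0.000173). Against nESCs it was 1.58-fold lower (-0.66 ± 0.20, adjusted p = 0.0216), where nESC line 1 lay just above the highest pXEN line, and the call was lost without nESC line 2 and with a replicate block (adjusted p 0.00469 to 0.216).

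The paralogs of the GCN5 family went opposite ways against nESCs. KAT2A (GCN5), the catalytic subunit of SAGA, was at 21.9, 19.1 and 19.6 FPKM in pXEN cells, 54.2 and 49.5 in nESCs and 33.4 and 35.6 in pESCs. It was 2.58-fold lower than in nESCs (adjusted p = 2.32e-05) and 1.70-fold lower than in pESCs (adjusted p = 0.000668). Its paralog KAT2B (PCAF) was at 4.97, 3.02 and 6.27 FPKM in pXEN cells, 0.431 and 0.773 in nESCs and 7.46 and 8.68 in pESCs, so the nESCs were lowest. The log2 fold change of KAT2B was 2.97 ± 0.42 against nESCs (adjusted p = 0.000587) and -0.76 ± 0.33 against pESCs (adjusted p = 0.0934). KAT2B lies on chromosome 13, where the median over all genes was 0.464 against nESCs, and relative to the chromosome's median KAT2B was at 2.5 against nESCs and -1.16 against pESCs on the log2 scale. KAT5 (TIP60) was lower against nESCs at -0.52 ± 0.12, a call lost without nESC line 1 (adjusted p 0.00171 to 0.0541), and KAT8 (MOF), which acetylates H4K16, was lower against pESCs at -0.57 ± 0.17, a call lost without pXEN line 1 and without either pESC line, and with limma (adjusted p 0.0161 to 0.173). The KAT8 model overlaps PRSS8 on the opposite strand, and the strand setting of the counting is not given in the sources used here. The class sum was 66.6 to 81.3 FPKM in pXEN cells, 123 to 138 in nESCs and 171 to 174 in pESCs. KAT7 alone had means of 23.4, 36.8 and 85.7 FPKM in these groups, so it weighs most in the pESC sum.

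**Figure D2:**
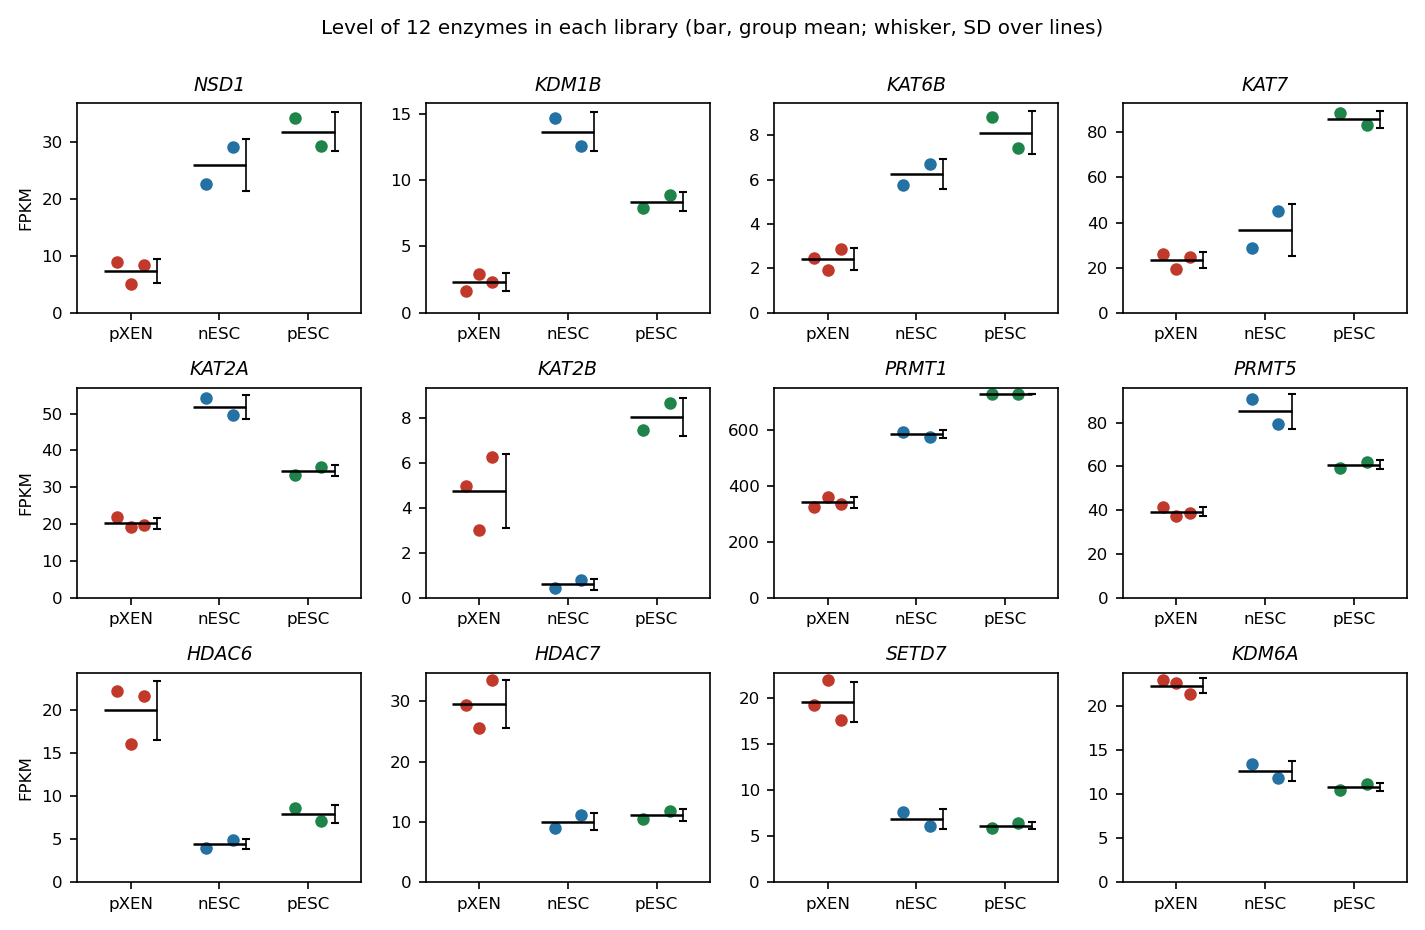
FPKM of 12 members in each library (points), with the mean (bar) and the SD over lines (whisker) of pXEN (n = 3), nESC (n = 2) and pESC (n = 2); each panel has its own axis from 0. In the first 8 panels the pXEN lines lie below all ESC lines, except that KAT2B is lowest in the nESCs, and the last 4 panels hold HDAC6, HDAC7, SETD7 and KDM6A, whose pXEN lines lie above all ESC lines.

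Calls among the deacetylases went in both directions. Of 8 HDAC rows tested, 2 were higher and 2 lower in pXEN cells against nESCs (25.0% each), near the 28.3% and 26.2% of all genes. Against pESCs, 3 were higher (37.5%) and none lower, beside 23.9% and 24.4% of all genes. HDAC6, the cytoplasmic deacetylase of tubulin, was at 22.1, 16 and 21.6 FPKM in pXEN cells, 4.01 and 4.89 in nESCs and 8.60 and 7.16 in pESCs. The pXEN lines were above all ESC lines, 4.45-fold higher than nESCs (log2 fold change 2.15 ± 0.19, adjusted p = 4.58e-05) and 2.54-fold higher than pESCs (1.34 ± 0.18, adjusted p = 0.000565). HDAC7, a class IIa deacetylase that binds MEF2 factors, was at 29.4, 25.6 and 33.5 FPKM in pXEN cells, 9.07 and 11.1 in nESCs and 10.5 and 11.9 in pESCs. It was 2.90-fold and 2.64-fold higher (1.54 ± 0.20 and 1.40 ± 0.20 in log2; adjusted p = 0.00039 and 0.000751), and its ESC levels differed by only 0.13 ± 0.21 in log2. The listed HDAC7 model is 836 bases long, shorter than the coding sequence of a class IIa enzyme, so the level covers part of the transcript.

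Another class IIa member went the other way. HDAC9 had 0, 3 and 0 counts in pXEN cells, 30 and 25 in nESCs and 8 and 9 in pESCs. The ratio of summed counts per library size was 25.0 (95% interval 8.12 to 125, counting error only) in favour of nESCs and 6.98 (2.02 to 37.2) in favour of pESCs, with adjusted p of 0.00323 and 0.0515 from the quasi-likelihood test, the second of which passed the threshold without pXEN line 2, with upper-quartile scaling and with limma on log2(FPKM + 0.1) (0.00483 to 0.173 over the alternatives). The 2 HDAC9 rows overlap each other on opposite strands, and the second had 2 counts, both in pXEN line 2. HDAC2, a core class I enzyme and the most abundant HDAC, was at 130, 165 and 132 FPKM in pXEN cells, 140 and 157 in nESCs and 135 and 142 in pESCs. Its groups overlapped and it was not called, with log2 fold changes of -0.07 ± 0.13 (adjusted p = 0.685) and 0.05 ± 0.13 (adjusted p = 0.8). HDAC5 was higher against pESCs at 0.49 ± 0.14, a call lost without pXEN line 1 and without either pESC line (adjusted p 0.00481 to 0.122). HDAC8 was lower against nESCs at -0.67 ± 0.22, a call lost under 10 of the alternatives (adjusted p 0.0104 to 0.153), among them leaving out pXEN line 1 or 3 or any ESC line. HDAC3, the catalytic subunit of the NCoR complex, and HDAC4 were not called in either comparison. The summed HDAC level was 267 to 293 FPKM in pXEN cells, 253 to 272 in nESCs and 223 to 228 in pESCs.

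Of the 7 sirtuins, which use NAD to remove acyl groups, 2 were lower in pXEN cells against nESCs and none was called against pESCs. The lower calls are 28.6%, near the 26.2% of all genes. No sirtuin was higher against nESCs, beside 28.3% of all genes. Against pESCs, 24.4% of all genes were lower and 23.9% higher. SIRT3, a mitochondrial deacetylase, was at 15.5 and 16.8 FPKM in pXEN lines 1 and 3, lower still in line 2, and at 25.0 and 23.1 in nESCs (log2 fold change -0.77 ± 0.20, adjusted p = 0.013). SIRT5, a mitochondrial desuccinylase, had -1.01 ± 0.33 (adjusted p = 0.0333). Both calls depended on single libraries, that of SIRT3 on nESC line 1 (adjusted p 0.00364 to 0.0723 over the alternatives) and that of SIRT5 on pXEN lines 1 and 3, nESC line 2 and either pESC line, besides the replicate block and the model of those groups alone (0.0165 to 0.298). SIRT2 stood out by its spread, with 4.35, 11.5 and 5.13 FPKM in pXEN lines 1, 2 and 3 against 14.4 and 11.1 in nESCs and 8.94 and 9.24 in pESCs. Its log2 fold change of -0.86 ± 0.40 against nESCs was not called (adjusted p = 0.105), and without pXEN line 2 it was (adjusted p 0.001 to 0.359 over the alternatives). SIRT6, a nuclear sirtuin, was between 5.68 and 7.77 FPKM in every library.

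Most H3K4 methyltransferases were not called, and the largest change was that of SETD7. Of 8 writers, 1 was higher (12.5%) and 2 lower (25.0%) against nESCs, beside 28.3% and 26.2% of all genes. Against pESCs, 2 were higher (25.0%) and 1 lower (12.5%), beside 23.9% and 24.4%. The median log2 fold change was 0.01 in both. SETD7, which monomethylates H3K4 and several non-histone proteins, was at 19.2, 21.9 and 17.6 FPKM in pXEN cells, 7.67 and 6.09 in nESCs and 5.88 and 6.40 in pESCs. The pXEN lines were all above the ESC lines, 2.84-fold higher than nESCs (log2 fold change 1.51 ± 0.15, adjusted p = 0.000104) and 3.21-fold higher than pESCs (1.68 ± 0.15, adjusted p = 9.02e-05). SETD1B, a SET1 complex enzyme, was at 13, 10.7 and 12.6 FPKM in pXEN cells, between 20.0 and 17.3 in nESCs and 9.57 and 9.23 in pESCs. It was lower than in nESCs (adjusted p = 0.00293) and higher than in pESCs (adjusted p = 0.0399), and the second call was lost under 12 alternatives, including the omission of each library but pXEN line 2 (adjusted p 0.00567 to 0.204). KMT2B was lower at -0.43 ± 0.12 and -0.37 ± 0.12, calls lost without nESC line 1 or 2 and, against pESCs, also without pXEN line 3 or either pESC line, with limma, in a model of those groups alone and with a replicate block (adjusted p 0.00472 to 0.105 and 0.0203 to 0.255). The enhancer methyltransferases KMT2C and KMT2D were not called, but without pXEN line 2 KMT2D was called higher against both (adjusted p 0.00908 to 0.619 and 0.0056 to 0.523 over the alternatives). The KMT2D model overlaps TUBA1B, which had 51371 counts, on the same strand. KMT2C stood in 4 rows, of which the member row is listed at 719 bases. With these rows summed, its log2 fold changes were 0.14 (adjusted p = 0.462) and 0.03 (adjusted p = 0.877).

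The H3K4 demethylases held one of the largest decreases among the members. KDM1B (LSD2), a flavin-dependent demethylase known from oocyte imprinting, was at 1.64, 2.95 and 2.34 FPKM in pXEN cells, 14.7 and 12.6 in nESCs and 7.88 and 8.89 in pESCs. It was 5.89-fold lower than in nESCs (log2 fold change -2.56 ± 0.22, adjusted p = 4.71e-05) and 3.60-fold lower than in pESCs (-1.85 ± 0.22, adjusted p = 0.000353), with no overlap between groups. Its paralog KDM1A (LSD1) was between 53.9 and 69.3 FPKM in all libraries, with log2 fold changes of 0.04 ± 0.13 and -0.10 ± 0.13. KDM5B, the most abundant demethylase among the members, was at 81.0, 83.1 and 82.8 FPKM in pXEN cells, 49.2 and 51.1 in nESCs and 72.0 and 70.4 in pESCs. It was higher against nESCs at 0.71 ± 0.09 (adjusted p = 0.000315). Against pESCs its difference of 0.22 ± 0.09 was not called (adjusted p = 0.0716), and without pXEN line 2, with DESeq2 and with limma it was (0.041 to 0.31 over the alternatives). KDM5C, on the X chromosome, was not called, but its lower level against nESCs was called without pXEN line 3 and under upper-quartile scaling (adjusted p 0.0202 to 0.241).

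Of the 3 writers of H3K9 methylation tested, 2 were lower in pXEN cells than in nESCs and none was called against pESCs. Over all genes, 26.2% were lower and 28.3% higher against nESCs, and 24.4% and 23.9% against pESCs. A share of so few members says little. SETDB1, which trimethylates H3K9 at retroelements, was at 11.3, 8.88 and 12 FPKM in pXEN cells, 19.8 and 20.0 in nESCs and 12.1 and 11.2 in pESCs. Its log2 fold change was -0.90 ± 0.13 against nESCs (adjusted p = 0.000773) and -0.11 ± 0.14 against pESCs (adjusted p = 0.535). SETDB2 followed at -1.08 ± 0.33 and -0.68 ± 0.33, of which the first was called and was lost without pXEN line 1 or either nESC line (adjusted p 0.0109 to 0.0901). EHMT2 (G9a), the dimethylating enzyme, was at 65.3, 57.7 and 62.7 FPKM in pXEN cells, 60.5 and 63.4 in nESCs and 71.9 and 70.6 in pESCs. It was not called, at -0.01 ± 0.09 (adjusted p = 0.962) and -0.20 ± 0.09 (adjusted p = 0.122). Among the erasers, KDM4A, which acts on H3K9 and H3K36, was lower against both types at -0.53 ± 0.10 and -0.67 ± 0.10 (adjusted p = 0.00332 and 0.00119). KDM3A was higher against nESCs at 0.61 ± 0.14, a call lost without nESC line 1 (adjusted p 0.000693 to 0.0516), and its paralog KDM3B was not called. KDM7A, a demethylase of H3K9 and H3K27, was at 3.15, 2.35 and 3.74 FPKM in pXEN cells, 1.97 and 2.25 in nESCs and 8.31 and 6.71 in pESCs. Here the pESCs stood apart, at 2.43-fold the pXEN level (log2 fold change of pXEN against pESC -1.28 ± 0.23, adjusted p = 0.00277), and the difference of 0.54 ± 0.25 against nESCs was not called (adjusted p = 0.104), though it was without pXEN line 2 (0.0219 to 0.338).

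Of the 3 PRC2 subunits tested among the members, EZH2 was lower in pXEN cells against nESCs and EZH1 against pESCs, and none against both. Each is 33.3%, beside 26.2% and 24.4% of all genes called lower, and none was higher. RBBP7, a PRC2 subunit outside the name rule, is given below. EZH2, the catalytic subunit, was at 27, 30.9 and 27.4 FPKM in pXEN cells, 40.1 and 46.6 in nESCs and 34.6 and 36.7 in pESCs. All pXEN lines lay below all ESC lines, and the difference was called against nESCs (log2 fold change -0.61 ± 0.12, adjusted p = 0.00285) and just missed the threshold against pESCs (-0.32 ± 0.12, adjusted p = 0.0554), with 8 alternatives calling it (adjusted p 0.0117 to 0.249), among them leaving out pXEN line 2. EZH1, its paralog, was at 10.4, 8.59 and 11.4 FPKM in pXEN cells, 10.3 and 9.51 in nESCs and 13.8 and 14.6 in pESCs. It was lower against pESCs at -0.48 ± 0.15 (adjusted p = 0.0325), a call lost without pXEN line 1 or either pESC line (0.0201 to 0.159), and had 0.03 ± 0.16 against nESCs (adjusted p = 0.891). The EZH1 model overlaps WNK4 on the same strand. SUZ12, the scaffold subunit, was at 27.7, 28.5 and 30.5 FPKM in pXEN cells, 27.2 and 29.3 in nESCs and 27 and 28.3 in pESCs. Its groups overlapped, with log2 fold changes of 0.03 ± 0.10 (adjusted p = 0.844) and 0.07 ± 0.10 (adjusted p = 0.606). EED, the subunit that binds the mark, had no row with its symbol, and the row with its gene ID had 330, 418 and 383 counts in pXEN cells, 399 and 387 in nESCs and 521 and 580 in pESCs. Its log2 fold changes were 0.08 (adjusted p = 0.607) and -0.26 (adjusted p = 0.0888). KDM6A (UTX), which removes H3K27 methylation and sits in the KMT2C and KMT2D complexes, was at 22.9, 22.6 and 21.3 FPKM in pXEN cells, 13.4 and 11.8 in nESCs and 10.5 and 11.1 in pESCs. It was 1.76-fold and 2.08-fold higher in pXEN cells (adjusted p = 0.000429 and 0.000156), with pXEN lines above all ESC lines.

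NSD1, which dimethylates H3K36 between genes, had the largest decrease against pESCs of any member with counts in every library. It was at 8.83, 5.0 and 8.29 FPKM in pXEN cells, 22.6 and 29.1 in nESCs and 34.2 and 29.3 in pESCs. The pXEN lines lay below every ESC line, 3.52-fold lower than nESCs (log2 fold change -1.82 ± 0.23, adjusted p = 0.000349) and 4.29-fold lower than pESCs (-2.10 ± 0.23, adjusted p = 0.000223). WHSC1 (NSD2), the paralog with the same product, was at 58.8, 52.9 and 55.8 FPKM in pXEN cells, 59.7 and 70.4 in nESCs and 44.6 and 42.1 in pESCs. It was higher against pESCs at 0.37 ± 0.11 (adjusted p = 0.0235), a call lost without pXEN line 1 or either pESC line, with upper-quartile scaling and with a replicate block (0.00789 to 0.17), and was not called against nESCs, at -0.23 ± 0.11 (adjusted p = 0.111). The WHSC1 model overlaps NELFA on the opposite strand and NAT8L on the same strand. SETD2, the H3K36 trimethylase, was higher against nESCs at 0.70 ± 0.17 (adjusted p = 0.0104), a call lost without nESC line 1 (6.4e-05 to 0.0832). SETD2 lies on chromosome 13, and relative to the median of that chromosome its log2 fold changes were 0.23 against nESCs and 0.04 against pESCs.

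SETD8, which monomethylates H4K20, was at 27.1, 28.6 and 27.4 FPKM in pXEN cells, 54.8 and 46.1 in nESCs and 50.7 and 50.6 in pESCs. It was 1.83-fold and 1.82-fold lower (-0.87 ± 0.12 and -0.86 ± 0.12 in log2; adjusted p = 0.000599 and 0.000786), with no overlap between pXEN and ESC lines. DOT1L, the H3K79 methyltransferase, was not called, and without pXEN line 2 it was called against nESCs (0.21 ± 0.14 with all libraries, adjusted p 0.0269 to 0.85 over the alternatives). SETD3, known as the histidine methyltransferase of actin, was at 69.3, 64.1 and 70.8 FPKM in pXEN cells, 42.9 and 41.1 in nESCs and 57.7 and 54.4 in pESCs. It was higher in pXEN cells at 0.69 ± 0.10 against nESCs (adjusted p = 0.000628) and at 0.29 ± 0.10 against pESCs (adjusted p = 0.0396). The second of these calls was lost under 11 of the alternatives, among them leaving out any library but pXEN line 2 (0.0101 to 0.251), and the SETD3 model overlaps CCNK on the opposite strand. SETD4 was lower at -1.0 ± 0.24 and -0.71 ± 0.24, and on chromosome 13 this became -1.46 and -1.10 relative to the chromosome's median. Its calls were lost without nESC line 1 and, against pESCs, without any library but pXEN line 1, with DESeq2, with no filter on low counts, in a model of those groups alone and with a replicate block (adjusted p 0.00386 to 0.0617 and 0.0271 to 0.174). SETD9, on chromosome 16, whose genes had a median of -0.734 against nESCs, was not called, at -0.75 ± 0.30. It was called lower under 4 of the 17 alternatives, among them upper-quartile scaling and limma on log2(FPKM + 1).

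**Figure D3:**
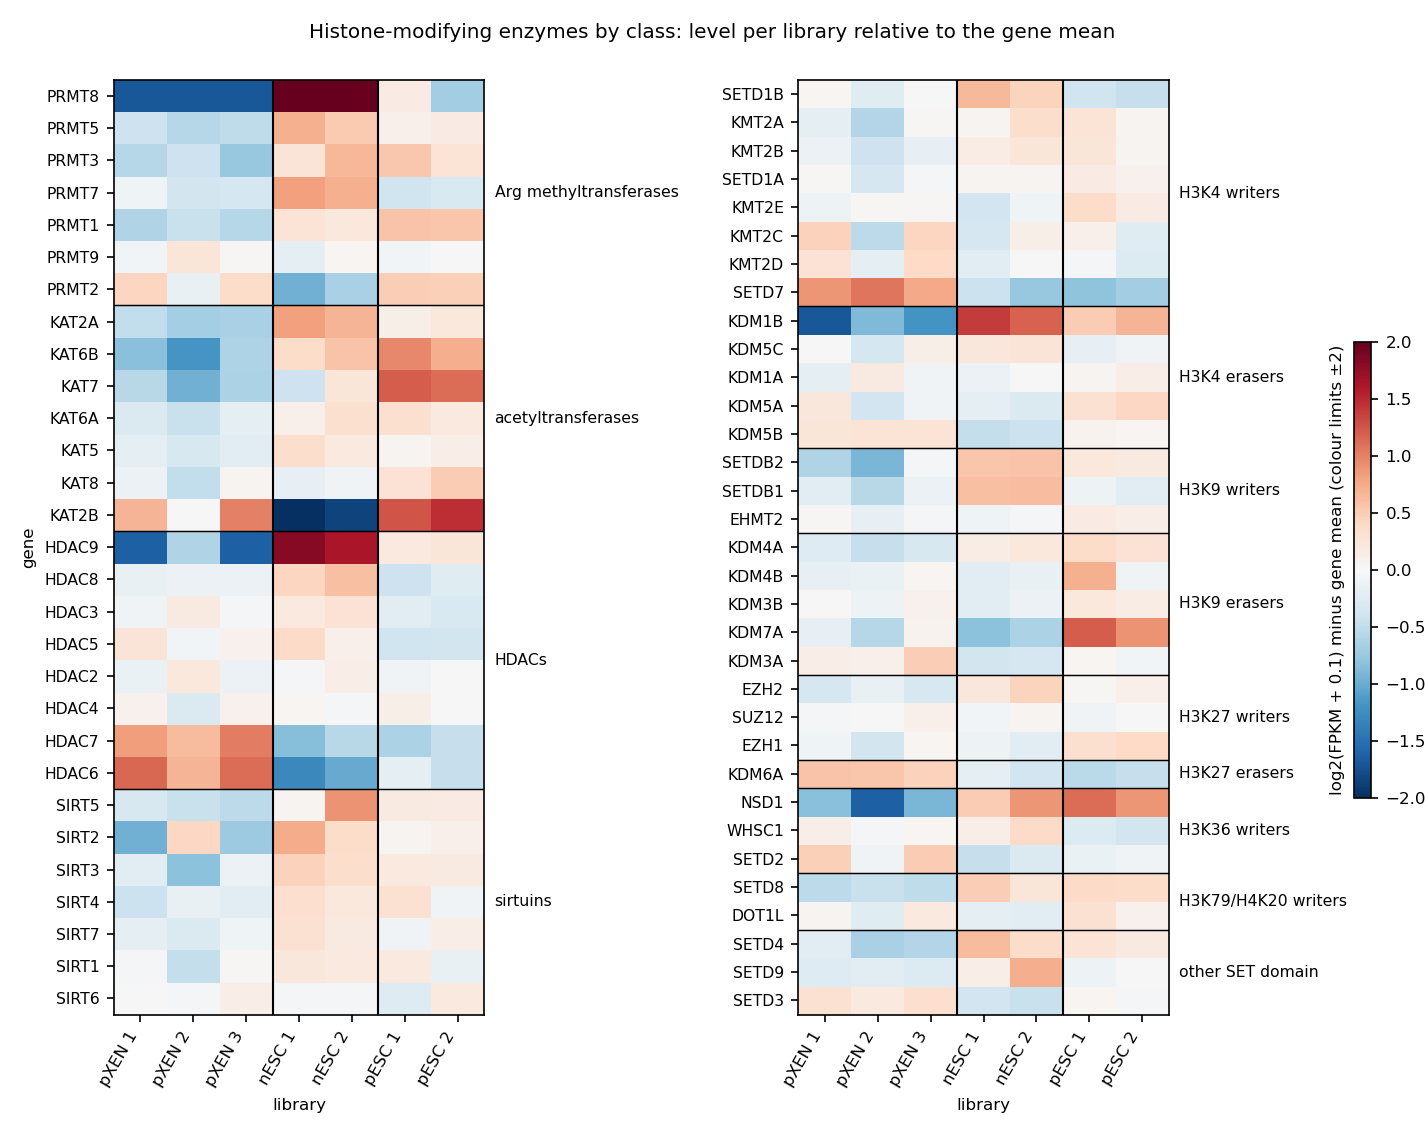
Level of the 62 members tested in each library, as log2(FPKM + 0.1) minus the mean of the gene over the 7 libraries (colour), in rows grouped by class with names at the right. Rows that are blue in all pXEN columns and red in both ESC types include NSD1, KDM1B, KAT6B and SETD8, and the reverse pattern is seen in HDAC6, HDAC7, SETD7 and KDM6A.

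Between the ESC types fewer members were called than in either comparison with pXEN cells, as was so over all genes tested. In pESCs, 8 members were higher than in nESCs (background 19.0%) and 10 lower (background 13.3%), with a median log2 fold change of -0.05 beside 0.012 over all genes. Those with a log2 fold change of at least 1 in size were KAT2B, KDM7A, PRMT2 and KAT7, higher in pESCs, and PRMT8, PRMT7 and SETD1B, lower. KAT2B was 13.2-fold higher in pESCs (log2 fold change 3.72 ± 0.44, adjusted p = 0.000645). KDM7A was 3.52-fold higher (1.81 ± 0.27, adjusted p = 0.00189) and KAT7 2.30-fold higher (1.2 ± 0.22, adjusted p = 0.00476). PRMT2 was 2.44-fold higher (1.28 ± 0.27, adjusted p = 0.00951) and PRMT7 2.20-fold lower (-1.14 ± 0.14, adjusted p = 0.000915). PRMT8, with 279 counts summed over the nESCs and 24 over the pESCs, was lower at an adjusted p of 0.0082. Of the 18 calls, those of KAT2B, KDM7A, KAT7, PRMT7 and SETD1B were kept whichever library was left out (5 calls), and those of PRMT2 and PRMT8 were not, the first depending on nESC line 1 and both pESC lines (adjusted p 0.00145 to 0.0671), the second on nESC line 2 and pESC line 2 (1.5e-05 to 0.0545). Leaving out 1 library gave 3 to 15 higher and 3 to 14 lower members. The lowest counts came without nESC line 1 or pESC line 1 (3 higher) and without pESC line 2 (3 lower), and the highest without pXEN line 2 (15 higher and 14 lower, beside 4213 and 3353 of 17264 genes, from 3308 and 2313 of 17447), while 6 were lower without either nESC line. Under upper-quartile scaling the split was 6 higher and 12 lower, a share of higher calls of 33.3% in place of 44.4%.

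Within pairs of related enzymes, the share of one partner in the summed FPKM does not depend on the scaling between libraries. KDM1A made up 96.4% ± 0.599 (SD, n = 3) of KDM1A plus KDM1B in pXEN cells, 81.1% ± 2.52 (n = 2) in nESCs and 88.6% ± 0.458 (n = 2) in pESCs. NSD1 made up 11.5% ± 2.52 of NSD1 plus WHSC1 in pXEN cells, 28.3% ± 1.25 in nESCs and 42.2% ± 1.60 in pESCs. In both pairs the libraries of the 3 cell types formed separate ranges. KAT6A held 84.9% ± 1.44 of its pair with KAT6B in pXEN cells, 75.6% ± 0.0443 in nESCs and 71.1% ± 1.25 in pESCs. KAT2A held 98.8% ± 0.528 of its pair with KAT2B in nESCs, against 81.2% ± 5.30 in pXEN cells and 81.1% ± 0.955 in pESCs, so pXEN cells and pESCs overlapped. SETD1A held 58.5% ± 0.687 of its pair with SETD1B in pXEN cells, between the 50.6% ± 2.71 of nESCs and the 68.0% ± 0.234 of pESCs. KMT2A and KMT2B were even, with mean shares of KMT2A of 49.4%, 49.7% and 49.9%.

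**Figure D4:**
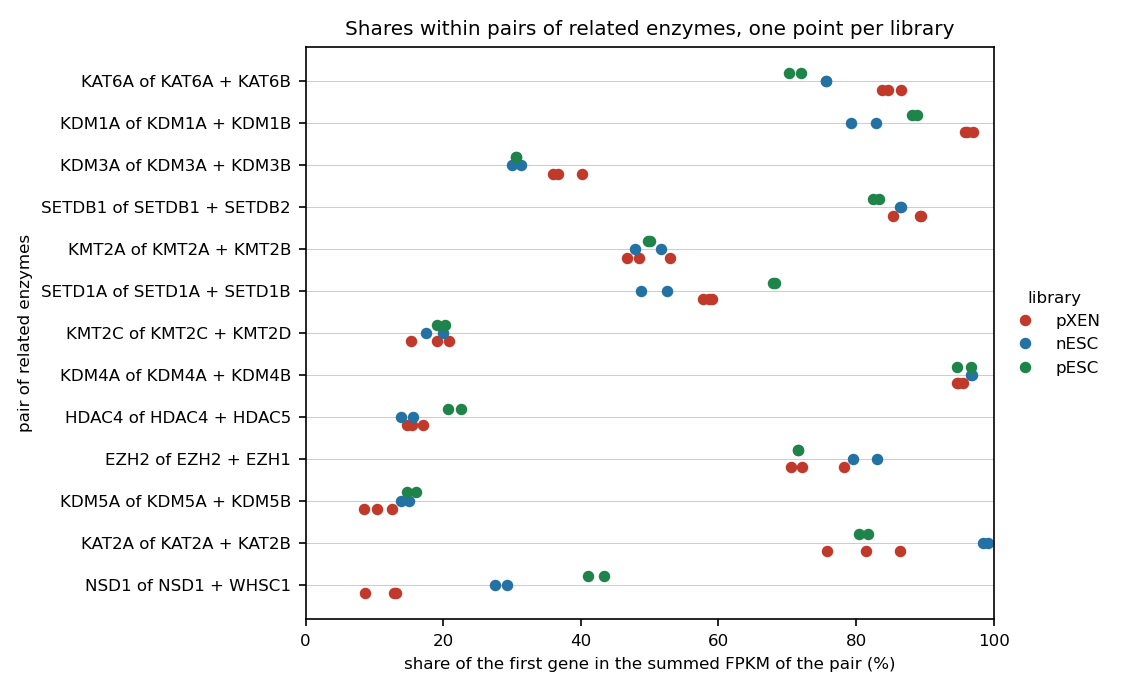
Share of the first-named gene in the summed FPKM of 13 pairs of related enzymes (horizontal axis, %), 1 point per library, coloured by cell type. NSD1 has its lowest share in pXEN cells (11.5% on average) and KDM1A its highest (96.4%), while the points of KMT2A against KMT2B and of KMT2C against KMT2D overlap between all cell types. The KMT2C row used is 1 of 4 rows of that gene and is listed at 719 bases.

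The pXEN lines were not alike in these genes. Line 2 was the lowest of the 3 pXEN lines in 39 of the 60 members with counts in pXEN cells and a mean of at least 1 CPM, which is 65.0%, where this held for 36.7% of 15718 genes chosen the same way. Among members with a listed length over 5000 bases, line 2 was lowest in 15 of 18, with a median log2 difference from lines 1 and 3 of -0.37, beside 46.8% and -0.04 over all genes of that length. Over the members, Spearman's rho between this difference and the listed length was -0.22, and over all the genes -0.07, values across genes that share the same 3 libraries. NSD1 (-0.75) and KAT2B (-0.83) were among the furthest below, and SIRT2 (1.22) and KDM1B (0.58) lay above. Without line 2, KMT2D, HDAC3, DOT1L, KDM7A and SIRT2 were also called against nESCs, and KMT2D, KDM5B, SETD2, EZH2, KDM3A, SIRT3, SIRT2 and HDAC9 against pESCs, while the call of SETD4 against pESCs was lost. The fibroblast marker sum also set line 2 apart, as given above, and its part in these differences was not tested.

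**Figure D5:**
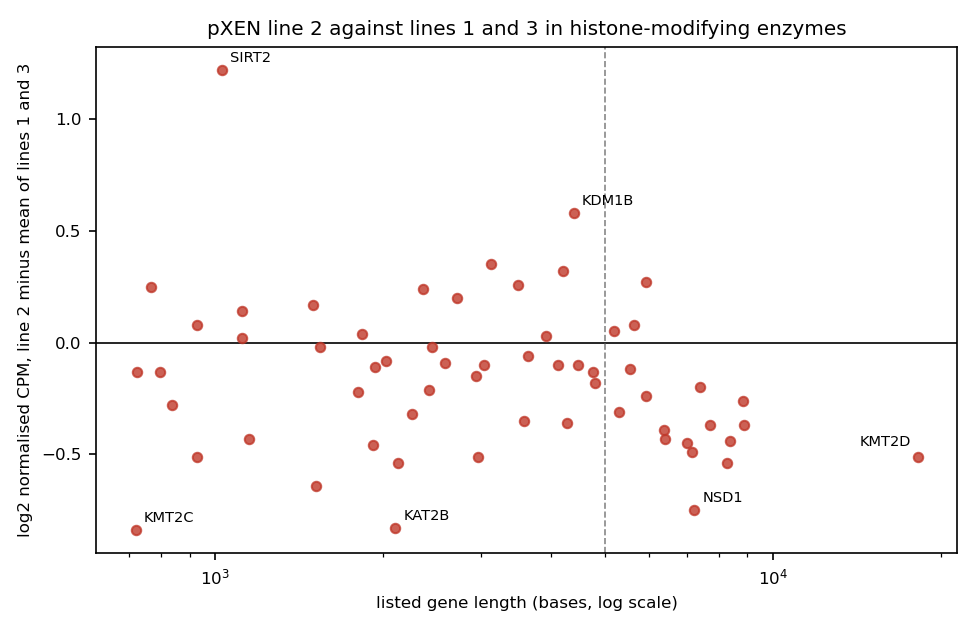
Log2 difference in normalised CPM between pXEN line 2 and the mean of lines 1 and 3 (vertical axis) against listed gene length (horizontal axis, log scale) for 60 members, PRMT8 and both HDAC9 rows and SUV39H1 left out for low counts. Of the 18 members to the right of the dashed line at 5000 bases, 15 had their lowest level in line 2.

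Chromosome position and gene model are set beside some of these values here, and their part in them was not tested. Chromosome 13 carries SETD2, SETD4 and KAT2B, and the median level of its genes was 0.361 and 0.383 (log2) in pXEN lines 1 and 3 and -0.0458 in line 2, relative to the mean of the libraries. Leaving out the members on chromosomes 13 and 16 gave 8 higher and 23 lower against nESCs and 8 higher and 16 lower against pESCs. The X chromosome, with KDM6A, HDAC6, KDM5C and HDAC8, had a median log2 fold change of 0.015 against nESCs and -0.05 against pESCs over all its genes. Relative to these medians, KDM6A was at 0.80 and 1.11 and HDAC6 at 2.14 and 1.39. KDM5C was at -0.33 and 0.11 and HDAC8 at -0.68 and 0.26. Of the 64 members, 18 overlap another gene model in the Sscrofa10.2 annotation, 9 of them on the same strand and 12 on the opposite strand.

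In the coordinates of that build, NSD1 lies on chromosome 2 from 82120288 to 82214175, KAT6B on chromosome 14 from 83530607 to 83722778 and KDM1B on chromosome 7 from 14591989 to 14643051. HDAC6 lies on chromosome X from 47858846 to 47885601 and KDM6A on the same chromosome from 44567692 to 44704826. SETD7 lies on the minus strand of chromosome 8 from 93131210 to 93169346, HDAC7 on that of chromosome 5 from 81391566 to 81393566 and PRMT8 on that of chromosome 5 from 68942252 to 69061177. The coordinates are those of whole gene models, and the values above are sums over their listed exons.

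Further enzymes of the same families stood in rows without a symbol, of which 14 matched a name of the rule by gene ID and 28 by their description. PRMT6, which methylates H3R2, had 113, 115 and 109 counts in pXEN cells, 366 and 303 in nESCs and 238 and 246 in pESCs. Its log2 fold changes of -1.43 and -0.82 were both called (adjusted p = 0.000151 and 0.00349), so it was lower in pXEN cells. KDM4C, an H3K9 demethylase, had 16, 19 and 29 counts in pXEN cells, 176 and 150 in nESCs and 87 and 71 in pESCs, with log2 fold changes of -2.79 and -1.61 (adjusted p = 0.000149 and 0.00336). KDM6B (JMJD3), the paralog of KDM6A, was higher at 0.57 and 0.84 in the row with its ID (adjusted p = 0.0167 and 0.00334). A second row described as KDM6B had 31, 29 and 32 counts in pXEN cells, 172 and 183 in nESCs and 19 and 12 in pESCs, so the rows of this gene disagreed against nESCs. HDAC1 had 1 count over all libraries together in the row with its ID and 209, 451, 143, 583, 317, 543 and 377 in a row described as HDAC1, whose pXEN and ESC libraries overlap. With the rows of the same gene summed, KDM5A was higher against nESCs at 0.40 and HDAC8 was no longer called at -0.50.

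Other subunits of the same complexes and enzymes outside the name rule were counted the same way. Of 86 such genes tested, 23 were higher (26.7%) and 21 lower (24.4%) in pXEN cells against nESCs, near the 28.3% and 26.2% of all genes. Against pESCs, 22 were higher (25.6%) and 15 lower (17.4%), beside 23.9% and 24.4% of all genes. WDR82, a SETD1 complex subunit, was at 194, 102 and 208 FPKM in pXEN cells and between 53.7 and 58.4 in the ESC lines, with log2 fold changes of 1.63 ± 0.28 and 1.56 ± 0.28 (adjusted p = 0.00158 and 0.00237), and it lies on chromosome 13. Of 8 further subunits of PRC2, 2 were higher and 2 lower in each comparison (25.0% each, near the shares of all genes). PHF1, which binds H3K36 methylation, was higher at 1.92 ± 0.16 and 1.06 ± 0.15 (adjusted p = 3.8e-05 and 0.000812), and JARID2, which helps bring PRC2 to its targets, was higher at 0.74 ± 0.20 and 0.99 ± 0.20 (adjusted p = 0.0147 and 0.0047). AEBP2, a DNA-binding accessory subunit, was lower at -0.96 ± 0.11 and -1.2 ± 0.11 (adjusted p = 0.000191 and 8.48e-05). RBBP7, a histone-binding subunit shared with NuRD, was 4.38-fold lower than in nESCs (adjusted p = 2.18e-05) and not called against pESCs, at -0.01 ± 0.16, and MTF2 was lower against pESCs at -0.47 ± 0.12 (adjusted p = 0.0108) and not called against nESCs, at 0.11 ± 0.12. TBL1XR1, of the NCoR complex with HDAC3, was higher at 1.44 ± 0.32 and 1.03 ± 0.31 and lies on chromosome 13 too. CDYL, a reader of H3K9 methylation found by gene ID, was lower at -1.43 ± 0.11 and -1.27 ± 0.11 (adjusted p = 2.3e-05 and 6.6e-05). Outside these complexes, SMYD2, a methyltransferase of histones and p53, was higher at 2.52 ± 0.21 and 1.30 ± 0.19 (adjusted p = 3.2e-05 and 0.000874). CARM1 (PRMT4), an arginine methyltransferase whose symbol the name rule does not take, was higher against pESCs at 0.52 ± 0.12 (adjusted p = 0.00676) and not called against nESCs, at 0.09 ± 0.11 (adjusted p = 0.534). NCOA1, a nuclear receptor coactivator, was higher at 1.91 ± 0.16 and 2.00 ± 0.16 (adjusted p = 4.2e-05 and 5.3e-05).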

How the data were processed

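RNA-seq libraries of 7 porcine cell lines were analysed, with groups taken from the sample labels. The authors aligned reads of directional, rRNA-depleted libraries with HISAT2 (2.0.5) to Sscrofa10.2 and counted them with featureCounts (1.5.0-p3), per the submitters' processing notes, and deposited raw gene counts. The deposited FPKM equal these counts divided by the listed length and by 1 constant per library, so a partial gene model holds only part of the reads of its gene. Lines are the replicates, and p-values measure the spread between them.

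Counts were tested with edgeR (4.0.16; R 4.3.3) in 1 quasi-likelihood model of the 7 libraries with TMM scaling and the filterByExpr filter (17447 genes, 4 residual degrees of freedom, biological coefficient of variation 0.223), with Benjamini-Hochberg adjustment over all genes tested. The scripts were tested on simulated data. DESeq2 (1.42.0), limma (3.58.1) on log2(FPKM + 0.1) and log2(FPKM + 1), other scalings and filters, a replicate block and the omission of each library were alternatives. Classes by mark, partner genes and pairs were listed by hand. The members and lists were chosen with earlier results of these data known. Full values were given to members called against both ESC types with a log2 fold change of at least 1 in size. The same holds for the 6 with the largest called difference between ESC types and the most abundant of each class. EZH2, EZH1 and SUZ12 of PRC2 were added to these. Other members were given a value where their class is described, and the plotted genes and the comparison of pXEN line 2 with listed length were chosen after the values were seen. Marks, DNA sequences and proteins were not analysed here.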

Additional observations from a re-analysis of the deposited data

How the results depend on the processing

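Counts of called members kept within 1.5 times of the reported ones under RLE scaling, DESeq2, limma and both other filters. Requiring a log2 fold change of at least 1 in size left 5 higher and 12 lower against nESCs, 4 and 7 against pESCs, and 4 and 3 in pESCs against nESCs. Over all 17447 genes tested, the same requirement left 3668 higher and 2791 lower against nESCs and 2881 and 2675 against pESCs. It left 2489 and 1309 in pESCs against nESCs. Members higher against pESCs fell to 5 with upper-quartile scaling and to 5 with a replicate block, whose line numbers do not pair samples (correlations of line differences between cell types of -0.00773 to 0.0589). With the replicate block, the other counts were 10 higher and 22 lower against nESCs, 15 lower against pESCs, and 7 higher and 9 lower between ESC types. Modelling the ESC types alone gave 15 members higher in pESCs in place of 8, as calls over all genes rose to 3963 of 16219 from 3308 of 17447. Leaving out 1 library at a time gave 7 to 13 higher and 17 to 26 lower against nESCs, 4 to 12 higher and 11 to 20 lower against pESCs, and 3 to 15 higher and 3 to 14 lower between ESC types. Where this left 1 library in a group, that library was assumed to vary like the other groups. Of 34, 25 and 18 calls, 21, 15 and 5 held whichever library was left out. No member's difference changed sign while called. With 2 or 3 lines a group and 4 residual degrees of freedom, small differences can be missed. The cause of these changes was not tested.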
